A study of Mus musculus with 8 samples.

Results

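The proteasome genes of splenic mouse T cells were followed in 8 single-cell RNA libraries. They were found by symbol: every gene of the count matrix named Psma, Psmb, Psmc or Psmd plus a number, with the immunoproteasome genes Psmb8, Psmb9 and Psmb10 set apart. This gave 36 of 20170 genes, of which 16 encode the core particle (Psma1 to Psma8, Psmb1 to Psmb7 and Psmb11) and 20 the regulatory particle (Psmc1 to Psmc6 and Psmd1 to Psmd14).

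The libraries came from wild-type (WT) mice and from mice with the genotype Sdha fl/fl CD4-Cre, called SDHA-KO, on a C57BL/6 background and aged 8 to 12 weeks. SDHA is the catalytic flavoprotein of mitochondrial complex II, and Cre stood under the control of Cd4 regulatory sequences, which are active in developing T cells of both the CD4 and the CD8 lineage. T cells were isolated magnetically from spleen and were either left unstimulated or stimulated for 48 h with 5 µg/mL anti-CD3 and 2.5 µg/mL anti-CD28, with 2 libraries for each of WT unstimulated, SDHA-KO unstimulated, WT stimulated and SDHA-KO stimulated. All groups share the isolation, and the protocol has T cells cultured alone or with the antibodies, without giving a time for cells without antibodies. The labels number the replicates but do not tie them to separate mice, so p-values measure the spread between these libraries, which may be technical.

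The proteasome degrades proteins tagged with ubiquitin. Its core particle is a barrel of alpha rings (Psma genes) that gate the entrance and beta rings (Psmb genes), in which PSMB5, PSMB6 and PSMB7 carry the proteolytic sites. The regulatory particle caps the barrel: a ring of ATPases (Psmc genes) unfolds the substrate, and non-ATPase subunits (Psmd genes) bind and remove the ubiquitin chain and hold the particle together. Activated T cells grow and divide rapidly, and in lymphocytes the immunoproteasome subunits PSMB8, PSMB9 and PSMB10 can take the place of PSMB5, PSMB6 and PSMB7.

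The promoters of the members are shown as sequence context, with 4 motifs searched and no test of their counts. RefSeq promoters of GRCm38.p6, 300 bases each with 250 before and 50 after the start site, were matched for 29 of the 36 members. These members have 31 promoters, and a member was counted if any of its promoters matched, while the shares of all promoters are per promoter. On either strand, the ETS core CCGGAAG was present in 9 of 17 regulatory particle genes and in 1 of 12 core particle genes (Psma6), against 8.86% of all 32851 promoters of the same length. The antioxidant response element core TGACNNNGC was in 5 of 29 members (17.2%, against 12.4% of all promoters), the CCAAT box CCAAT in 12 (41.4%, against 37.4%; 7 of 12 core and 5 of 17 regulatory genes) and the E-box CACGTG in 2 (6.90%, against 7.15%). The E-boxes were in Psma4 and Psmd9, and in Psmd9 the E-box and the antioxidant core did not overlap. The promoters below are those of 2 catalytic subunits that hold the antioxidant core (Psmb5 at chr14:54617946-54618245, minus strand, and Psmb6 at chr11:70525107-70525406, plus strand) and of 2 regulatory subunits that hold the ETS core (Psmd2 at chr16:20651402-20651701, plus strand, and Psmd4 at chr3:95042565-95042864, minus strand). Capitals mark the antioxidant, ETS and CCAAT letters.
Psmb5: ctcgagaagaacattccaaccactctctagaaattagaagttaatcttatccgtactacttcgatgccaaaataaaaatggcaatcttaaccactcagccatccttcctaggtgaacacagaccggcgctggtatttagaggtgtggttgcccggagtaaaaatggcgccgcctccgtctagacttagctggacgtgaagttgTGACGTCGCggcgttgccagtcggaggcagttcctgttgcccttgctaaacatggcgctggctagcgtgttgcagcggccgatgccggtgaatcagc
Psmb6: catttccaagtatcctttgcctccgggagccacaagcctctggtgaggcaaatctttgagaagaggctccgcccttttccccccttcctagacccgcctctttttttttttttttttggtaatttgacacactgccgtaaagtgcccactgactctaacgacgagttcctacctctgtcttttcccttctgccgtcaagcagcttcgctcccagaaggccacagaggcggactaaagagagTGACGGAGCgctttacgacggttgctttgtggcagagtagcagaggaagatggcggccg
Psmd2: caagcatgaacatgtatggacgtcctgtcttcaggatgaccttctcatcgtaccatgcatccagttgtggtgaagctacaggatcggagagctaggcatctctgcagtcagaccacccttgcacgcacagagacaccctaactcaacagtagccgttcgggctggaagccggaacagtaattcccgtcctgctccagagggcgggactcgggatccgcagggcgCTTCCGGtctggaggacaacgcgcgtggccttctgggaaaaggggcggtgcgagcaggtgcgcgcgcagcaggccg
Psmd4: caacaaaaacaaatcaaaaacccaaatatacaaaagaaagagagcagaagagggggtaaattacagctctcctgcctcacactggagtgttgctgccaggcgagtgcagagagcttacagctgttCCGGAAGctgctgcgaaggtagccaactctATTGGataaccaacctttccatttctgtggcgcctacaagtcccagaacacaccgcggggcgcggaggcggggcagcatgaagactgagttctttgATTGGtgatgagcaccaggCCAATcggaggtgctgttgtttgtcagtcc
A letter match is a description and not a bound site.

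Unique molecular identifiers (UMIs, 1 per captured transcript) were summed over the cells of each library within the CD4 class and the CD8 class that the authors assigned. The 12846 cells gave totals of 3640136 to 34087903 UMIs per library and class, and 23 of 12823 barcodes occurred in more than 1 library. Sdha transcripts in the CD4 class were at 100.5 and 100.1 CPM (UMI counts scaled to a common library total, after scaling by the trimmed mean of M-values, TMM) in unstimulated WT and at 49.8 and 49.4 in unstimulated SDHA-KO, and at 74.0 and 73.1 in stimulated WT and 26.5 and 26.4 in stimulated SDHA-KO. In the CD8 class they were at 76.2 and 74.9 in stimulated WT and at 53.3 and 50.4 in stimulated SDHA-KO, a smaller gap than in the other 3 contrasts. In the stimulated SDHA-KO libraries 59.1% and 56.1% of CD8 class cells held a UMI of Trdc, the constant gene of the delta T cell receptor chain, against 3.67% and 4.92% in stimulated WT. Without stimulation the shares in the CD8 class were 19.7% and 15.2% in SDHA-KO against 3.90% and 3.41% in WT. In the CD4 class they were 10.1% and 8.64% against 1.98% and 3.21% stimulated, and 7.08% and 7.60% against 3.64% and 2.84% unstimulated. The stimulated libraries also differed in their cells: 60.9% and 59.1% of stimulated WT CD4 cells, but 13.1% and 9.97% of stimulated SDHA-KO CD4 cells, had 10% or more of their UMIs from mitochondrially encoded genes, and in the CD8 class these shares were 75.7% and 70.7% against 35.0% and 35.9%. Such cells made up at most 0.179% of any unstimulated library. Both facts are set beside the results they touch.

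Summed over all cells of a library, both particles were higher in stimulated than in unstimulated WT cells. The summed core particle level of the CD4 class was 1937 and 1924 CPM in unstimulated WT and 3498 and 3560 in stimulated WT, a 1.83-fold difference. The regulatory particle went from 1233 and 1199 to 2013 and 1989, a 1.65-fold difference. In the CD8 class the core particle was at 2032 and 2058 unstimulated and at 3029 and 3094 stimulated, and the regulatory particle at 1196 and 1222 against 1924 and 1930, or 1.5-fold and 1.59-fold. In each case both stimulated libraries lay above both unstimulated libraries. With 2 libraries a group the smallest exact two-sided permutation p is 0.33, so these sums carry no test. Per cell, the mean number of core particle UMIs was 12.9 and 13.5 in unstimulated and 111 and 113 in stimulated WT CD4 cells.

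The stimulated cells fell into parts with different core particle levels by their share of mitochondrial UMIs. As raw CPM (scaled to the total of all UMIs, without TMM), the core particle was at 1783 and 1765 in unstimulated WT CD4 cells. It was at 4469 and 4393 in stimulated WT CD4 cells under 10% mitochondrial UMIs but at 1748 and 1759 in those at 10% or more, below the unstimulated libraries. In CD8 cells it was at 1706 and 1709 unstimulated, and at 4720 and 4449 under 10% and 1849 and 1826 at 10% or more after stimulation. The regulatory particle of cells at 10% or more was at 1430 and 1361 against 1135 and 1100 unstimulated in CD4, and at 1548 and 1480 against 1004 and 1015 in CD8 cells. On this scale, the core particle of stimulated cells at 10% or more was slightly lower than without stimulation in CD4 cells. It was slightly higher in CD8 cells, and the regulatory particle was higher in both classes. The total used for raw CPM includes the mitochondrial UMIs that define these cells. Scaled to the UMIs of all other genes, the core particle was at 2211 and 2199 against 1858 and 1837 unstimulated in CD4 cells. In CD8 cells it was at 2335 and 2267 against 1782 and 1783. The direction of the core particle in CD4 cells at 10% or more therefore depended on the scaling. The gene-by-gene fits below sum both kinds of cell.

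**Figure D1:**
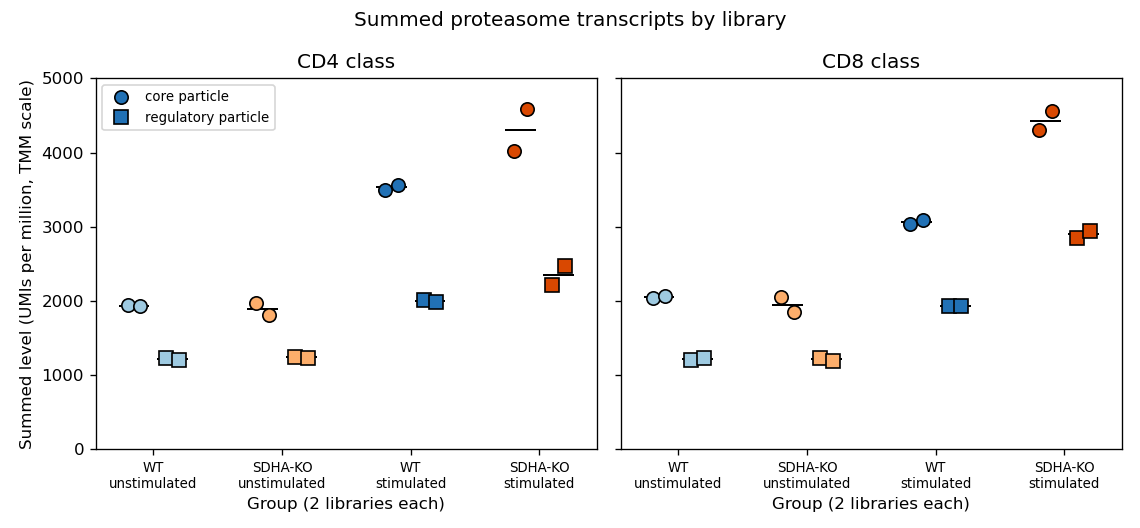
Summed level of the core particle genes (circles) and the regulatory particle genes (squares), in CPM on the TMM scale, by group; each point is 1 library and each line the mean of 2. In the CD4 class the core particle sits at 1811 to 1965 unstimulated, at 3498 and 3560 in stimulated WT and at 4023 and 4580 in stimulated SDHA-KO; in the CD8 class the stimulated SDHA-KO libraries reach 4299 and 4558.

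Gene by gene, edgeR's quasi-likelihood test with Benjamini-Hochberg adjustment over all genes called a member where its adjusted p was under 0.05. Of the 34 members that passed the filter on low counts in the CD4 class, 13 of 14 core and 17 of 20 regulatory genes rose with stimulation, against a background of 36.2% of 14264 genes, and 1 regulatory gene fell, against 30.1%. The median log2 fold change was 0.93 for the core and 0.69 for the regulatory particle, with 0.08 over all genes. In the CD8 class 13 of 15 core and 17 of 20 regulatory genes rose, against 35.5% of 13095 genes, and 1 of each particle fell, against 30.3%, with medians of 0.70 and 0.57 and 0.09 over all genes. At least 2-fold rises were called for 10 members in CD4 cells, against 21.8% of all genes, and for 5 in CD8 cells, against 21.4%. In these sums over all cells the rise was therefore broad and, on the TMM scale, mostly below 2-fold. Its size depended on the scaling. As a share of all UMIs the core particle went from 0.178% and 0.176% to 0.379% and 0.377% in CD4 cells. In CD8 cells it went from 0.171% and 0.171% to 0.357% and 0.356%, above 2-fold in both classes. The regulatory particle went from 0.113% and 0.110% to 0.218% and 0.211% in CD4, and from 0.100% and 0.101% to 0.227% and 0.222% in CD8 cells.

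Among the catalytic subunits, Psmb5, which cuts after hydrophobic residues, was at 121 and 112 CPM in unstimulated and 211 and 204 in stimulated WT CD4 cells, a log2 fold change of 0.83 ± 0.09 (SE, adjusted p = 5.53e-06, edgeR). Psmb6, the caspase-like subunit, went from 117 and 114 to 218 and 214 (0.91 ± 0.09). Psmb7, the trypsin-like subunit, went from 58.4 and 62.0 to 127 and 133 (1.11 ± 0.09). The 3 catalytic genes thus moved by similar amounts in CD4 cells, and in CD8 cells their log2 fold changes were 0.68, 0.81 and 0.94. The largest called core rise in both classes was that of the alpha ring gene Psma4, from 118 and 116 to 300 and 299 in CD4 cells (1.36 ± 0.09) and from 111 and 103 to 227 and 224 in CD8 cells (1.07 ± 0.08). The other 6 tested alpha genes had log2 fold changes of 0.63 to 1.30 in CD4 and 0.46 to 0.79 in CD8 cells, and all of them rose.

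In the regulatory particle the largest fold change was that of the lid gene Psmd3 in CD4 cells and of the lid gene Psmd7 in CD8 cells. Psmd3 went from 25.98 and 24.9 to 73.7 and 74.2 in CD4 cells (1.54 ± 0.09), and Psmd7, whose product pairs with the deubiquitinase PSMD14, went from 65.4 and 68.3 to 193 and 180 in CD8 cells (1.48 ± 0.09). Psmd14 itself went from 77.0 and 81.5 to 137 and 138 in CD4 cells (0.79 ± 0.08) and from 83.4 and 98.4 to 136 and 132 in CD8 cells (0.55 ± 0.09). Psmd2, a docking site for ubiquitin receptors, went from 40.4 and 42.0 to 71.9 and 72.6 in CD4 cells (0.81 ± 0.08) and from 35.7 and 38.6 to 69.3 and 75.2 in CD8 cells (0.95 ± 0.09). All 6 ATPase genes rose, with log2 fold changes of 0.34 to 0.96 in CD4 and 0.34 to 0.81 in CD8 cells.

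A few members stood apart from this rise. Psmd4, the ubiquitin receptor whose promoter is printed above, was at 123 and 116 CPM in unstimulated and 122 and 124 in stimulated WT CD4 cells (0.04 ± 0.08, adjusted p = 0.63, edgeR) and at 109 and 106 against 112 and 117 in CD8 cells (0.09 ± 0.07, adjusted p = 0.27, edgeR). Its groups overlapped in CD4 cells, while Psmd2, which also holds the ETS core, rose in both classes. Psmb1, a structural beta subunit, was at 296 and 296 against 282 and 292 in CD4 cells (-0.05 ± 0.08, adjusted p = 0.64, edgeR) and fell from 341 and 322 to 233 and 245 in CD8 cells (-0.47 ± 0.08, adjusted p = 0.00025, edgeR). Of the 3 assembly chaperones of the regulatory particle base, Psmd9 rose (0.45 in CD4 and 0.40 in CD8 cells), Psmd5 fell in CD4 cells from 38.5 and 31.8 to 27.8 and 27.9 (-0.33 ± 0.10, adjusted p = 0.014, edgeR) and was at -0.07 in CD8 cells, and Psmd10 fell in CD8 cells from 23.4 and 33.0 to 20.2 and 21.6 (-0.45 ± 0.14, adjusted p = 0.016, edgeR) and was at 0.03 in CD4 cells. The falls of Psmb1 and Psmd10 in CD8 cells depended on the scaling: with library totals alone their log2 fold changes were 0.012 and 0.033, and the median of all genes moved from 0.09 to 0.57 (from 0.08 to 0.30 in CD4 cells), with 52.8% of genes called higher and 17.03% lower. Among cells under 10% mitochondrial UMIs no member fell: 33 of 34 rose in CD4 cells, against 37.7% of all genes (32% fell), and 31 rose in CD8 cells, against 36.1% (31.6% fell), with Psmb1 at 0.36 and 0.048.

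**Figure D2:**
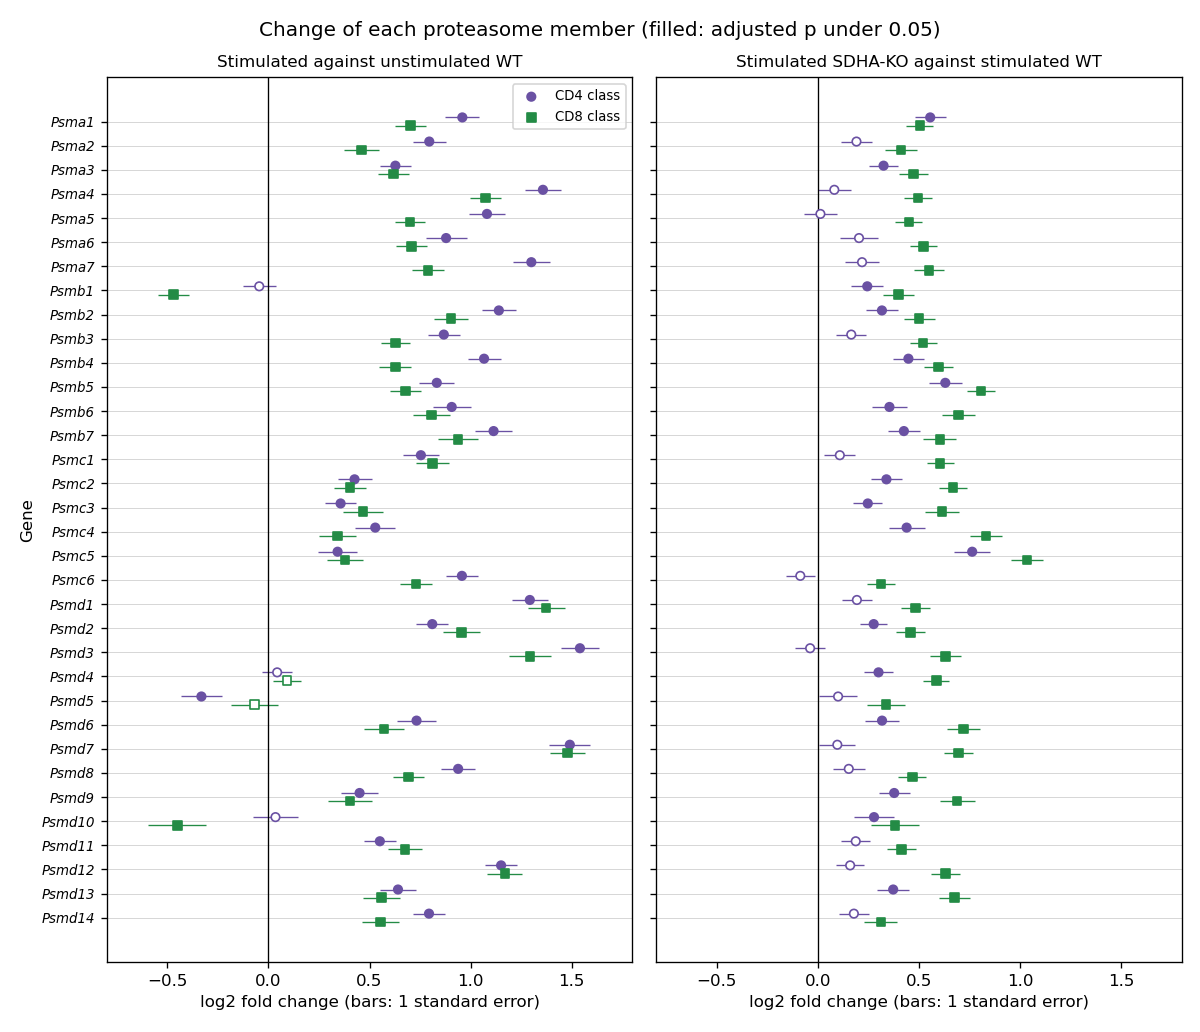
Log2 fold change of each tested member except Psmb11, with bars of 1 standard error, for stimulation in WT (left) and for SDHA-KO against WT after stimulation (right); circles are the CD4 class, squares the CD8 class, and filled symbols have an adjusted p under 0.05. Psmb1, Psmd4, Psmd5 and Psmd10 lie near or below 0 with stimulation on the TMM scale (with library totals Psmb1 and Psmd10 are at 0.012 and 0.033 in CD8 cells), and Psmc5 lies highest on the right, at 0.76 in CD4 and 1.03 in CD8 cells.

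The tissue-restricted members were almost absent. Psma8, an alpha subunit of the testis, had at most 22 UMIs in any library and class and did not pass the filter. Psmb11, the catalytic subunit of thymic epithelium, was at 0 UMIs in all 4 unstimulated libraries of both classes, which allows up to 0.268 to 0.443 CPM in CD4 and up to 0.556 to 0.824 in CD8 cells (3 counts, counting error only). Its 39 UMIs in 1 stimulated WT CD8 library came from 5 cells, 35 of them from 1 cell, and 38 of the 57 in 1 stimulated SDHA-KO CD8 library came from 1 cell. It passed the filter in CD8 cells through these libraries, and it was not called (adjusted p = 0.31 for stimulation, edgeR).

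The immunoproteasome genes did not follow the core particle. Their sum was at 804 and 812 CPM in unstimulated and 865 and 923 in stimulated WT CD4 cells (1.11-fold) and at 905 and 968 against 727 and 715 in CD8 cells (0.77-fold). Psmb10 fell in both classes (log2 fold changes -0.78 and -1.22, adjusted p under the threshold), and Psmb8 and Psmb9 rose in CD4 cells (0.25 and 0.30) and fell in CD8 cells (-0.21 and -0.33). These falls of Psmb8, Psmb9 and the sum in CD8 cells were smaller than the shift of the median of all genes between TMM and library totals given above, so their direction rests on the scaling, while that of Psmb10 was larger. Set within each library, the UMIs of Psmb7 over those of its counterpart Psmb10 went from 0.495 and 0.480 in unstimulated to 1.73 and 1.89 in stimulated WT CD4 cells, and from 0.382 and 0.350 to 1.504 and 1.76 in CD8 cells. Psmb5 over Psmb8 went from 0.246 and 0.227 to 0.369 and 0.340 in CD4 and from 0.216 and 0.215 to 0.398 and 0.403 in CD8 cells. The groups of WT libraries did not overlap in any of these ratios, nor for Psmb6 over Psmb9. In stimulated SDHA-KO libraries the 3 ratios did not move together: Psmb5 over Psmb8 was above stimulated WT, at 0.470 and 0.489 in CD4 and 0.577 and 0.567 in CD8 cells, and Psmb7 over Psmb10 was below it, at 1.24 and 1.28 and at 1.10 and 1.13. Psmb6 over Psmb9 was at 0.789 and 0.838 against 0.990 and 0.849 in WT CD4 cells, but at 1.74 and 1.799 against 1.21 and 1.17 in CD8 cells. Capture differs between genes, so only the change of a ratio between libraries can be read, and no test was run on it.

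**Figure D3:**
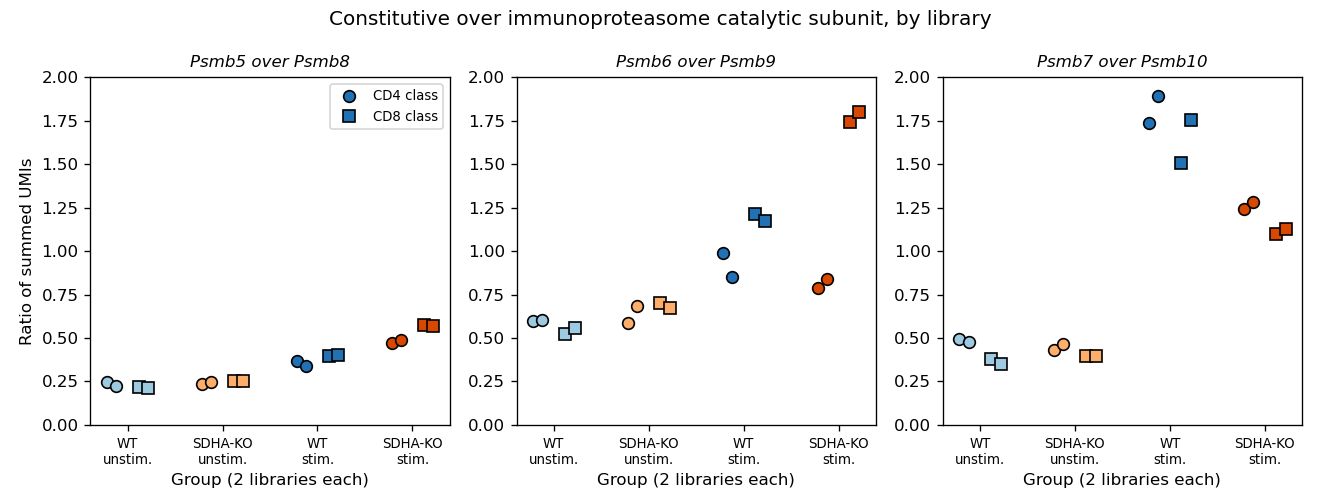
Ratio of the summed UMIs of each constitutive catalytic gene to its immunoproteasome counterpart, by group; circles are CD4 class and squares CD8 class libraries. In WT cells all 3 ratios are higher after stimulation; in stimulated SDHA-KO cells Psmb7 over Psmb10 sits at 1.10 to 1.28, below the stimulated WT libraries at 1.504 to 1.89, and Psmb5 over Psmb8 at 0.470 to 0.577, above those at 0.340 to 0.403.

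Without stimulation, no proteasome gene was called different between SDHA-KO and WT. The core particle was at 1965 and 1811 CPM in SDHA-KO CD4 cells, around the WT values, and at 2045 and 1851 in CD8 cells. The regulatory particle was at 1244 and 1228 in CD4 and 1227 and 1192 in CD8 cells. The shares of cells with a Trdc UMI, given above, also differed between these SDHA-KO and WT libraries. By edgeR no member was called in either class, where 1.1% of all genes were called in CD4 and 0.947% in CD8 cells, and 1 member in each class had an unadjusted p under 0.05. DESeq2 and limma on mean log values also called 0 members in either class. The log2 fold changes ran from -0.22 (Psmd5) to 0.20 (Psmd14) in CD4 cells and, leaving out Psmb11, from -0.27 (Psmb1) to 0.15 (Psmd1) in CD8 cells.

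After stimulation, summed levels were higher in SDHA-KO than in WT when all cells were counted. The core particle was at 4023 and 4580 CPM in SDHA-KO against 3498 and 3560 in WT CD4 cells (1.22-fold), and at 4299 and 4558 against 3029 and 3094 in CD8 cells (1.45-fold). The regulatory particle was at 2217 and 2471 against 2013 and 1989 in CD4 (1.17-fold) and at 2847 and 2942 against 1924 and 1930 in CD8 cells (1.5-fold). In CD4 cells 8 of 14 core and 10 of 20 regulatory genes were called higher, against 22.7% of all genes, and 0 lower, against 20.5%. In CD8 cells 14 of 15 core genes and all 20 regulatory genes were called higher, against 26.8%, and 0 lower, against 23.5%. The medians were 0.28 and 0.22 in CD4 and 0.52 and 0.61 in CD8 cells, with -0.00094 and -0.0096 over all genes. A difference of at least 2-fold was called for Psmc5 in CD8 cells, against 4.78% of all genes higher, and for 0 members in CD4 cells, against 4.36%. On counts simulated for this contrast, edgeR called 70.5% of genes changed by 0.5 on the log2 scale in the CD4 and 65.7% in the CD8 class. The simulation gave every gene and library the same dispersion, so these shares need not hold for the real libraries. Leaving out 1 library at a time, the log2 difference of the summed core level in CD4 cells ranged from 0.20 to 0.39.

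Among the called genes the one that differed most was Psmc5, an ATPase of the regulatory particle (chr11:106256154-106263120). It was at 102 and 96.7 CPM in stimulated WT and at 154 and 182 in stimulated SDHA-KO CD4 cells (0.76 ± 0.09, adjusted p = 6.75e-05, edgeR), and at 97.5 and 94.0 against 189 and 203 in CD8 cells (1.03 ± 0.08, adjusted p = 2.52e-06, edgeR). The catalytic Psmb5 led the called core genes, at 211 and 204 against 299 and 343 in CD4 cells (0.63 ± 0.08) and at 195 and 196 against 329 and 354 in CD8 cells (0.81 ± 0.07). Psmb6 was at 218 and 214 against 254 and 298 in CD4 cells (0.35) and at 193 and 186 against 295 and 317 in CD8 cells (0.69), and Psmb7 differed by 0.42 and 0.60. The smallest differences in CD4 cells were those of Psma5, at 189 and 192 in WT against 181 and 203 in SDHA-KO (0.01, adjusted p = 0.92, edgeR), whose groups overlapped, and of Psmd3 and Psmc6, at -0.04 and -0.09, neither of them called. In CD8 cells the smallest were Psmb1 (0.40) for the core and Psmd14 and Psmc6 (both 0.31) for the regulatory particle. Psmd4, which was not called with stimulation in WT, was at 122 and 124 against 144 and 158 in CD4 (0.30) and at 112 and 117 against 172 and 172 in CD8 cells (0.59). The chaperones Psmd9 (0.38 and 0.69) and Psmd10 (0.28 and 0.38) were called in both classes and Psmd5 in CD8 cells (0.34).

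This difference moved with the make-up of the stimulated libraries. Among cells under 10% mitochondrial UMIs, core particle transcripts made up 4469 and 4393 raw CPM in stimulated WT and 4482 and 5048 in SDHA-KO CD4 cells, and 4720 and 4449 against 5213 and 5438 in CD8 cells. Among cells at 10% or more they made up 1748 and 1759 against 2108 and 2272 in CD4 and 1849 and 1826 against 2006 and 1959 in CD8 cells. The gap between the 2 kinds of cell was thus larger for the core particle than the gap between genotypes in either. The cells under 10% also held more RNA: their median was 59714 and 59711 UMIs in stimulated WT CD4 cells, against 10690 and 10633 in those at 10% or more, and 26638 and 26961 against 6617 and 6518 in SDHA-KO. The regulatory particle made up 2431 and 2338 against 2445 and 2705 raw CPM in CD4 and 2749 and 2601 against 3348 and 3405 in CD8 cells under 10%. It made up 1430 and 1361 against 1795 and 1838 in CD4 and 1548 and 1480 against 2124 and 2101 in CD8 cells at 10% or more.

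**Figure D4:**
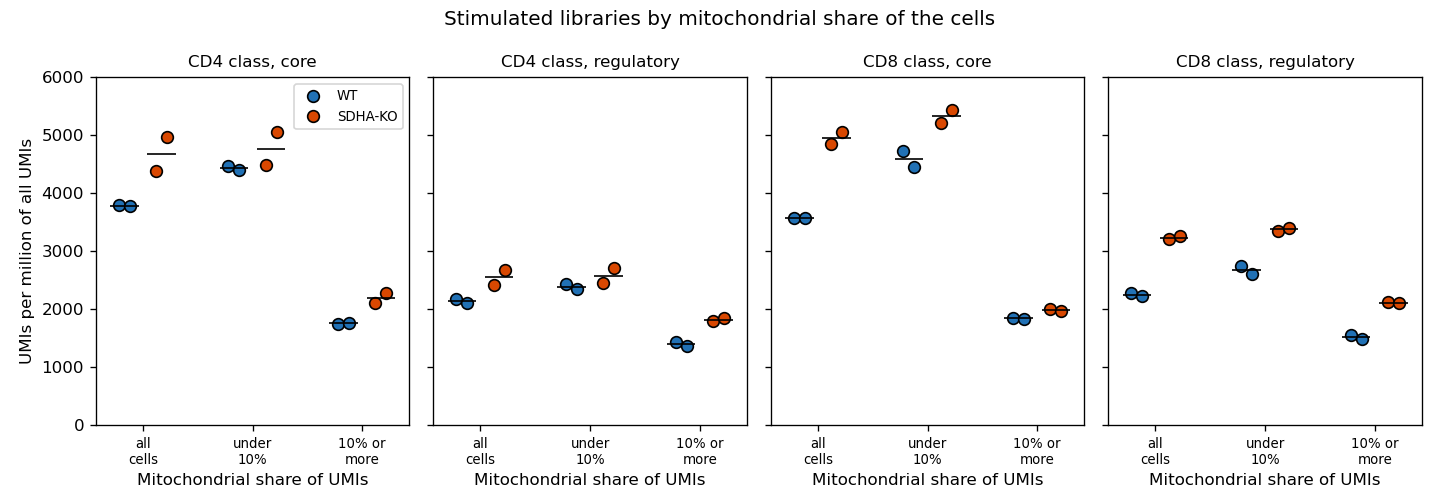
Core and regulatory particle raw CPM in the 4 stimulated libraries of each class, for all cells and for cells under 10% and at 10% or more mitochondrial UMIs; each point is 1 library and each line the mean of 2. For the core particle, cells under 10% lie at 4393 to 5438 and cells at 10% or more at 1748 to 2272.

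Fitted on cells under 10% alone, 3 members were called higher in stimulated SDHA-KO CD4 cells (Psma1 0.23, Psmb5 0.25 and Psmc5 0.42), against 16% of all genes, and 6 lower (Psma4 -0.31, Psma5 -0.34, Psmb3 -0.24, Psmc6 -0.39, Psmd3 -0.37 and Psmd8 -0.24), against 16.7%. The log2 difference of the summed core level was then -0.084 on the TMM scale, where the share of all UMIs was not lower in SDHA-KO, so its sign depended on the scaling. In CD8 cells under 10%, 14 members were called higher and 0 lower, against 18.4% and 17% of all genes, and the summed levels differed by 0.13 and 0.25. Counting only CD8 class cells with a Cd8a or Cd8b1 UMI and no Cd4 or Trdc UMI, 31 members were called higher, against 25% of all genes, and 0 lower, against 24.4%. This strict CD8 class kept 169 of 511 and 147 of 396 stimulated SDHA-KO cells, and 736 of 844 and 709 of 834 in WT. The limit of 10% on top of it left 146 and 113 SDHA-KO cells and 182 and 209 WT cells. In the CD4 class, counted on cells with a Cd4 UMI and no Cd8a, Cd8b1 or Trdc UMI, 18 were higher, against 21.2%, and 0 lower, against 19.8%. With both restrictions at once 3 members were called higher in CD8 cells (Psmb4 0.26, Psmb5 0.28 and Psmc5 0.52), against 16.2%, and 0 lower, against 16.6%, with median log2 fold changes of 0.03 for the core and 0.01 for the regulatory particle, and 2 were called higher in CD4 cells (Psmb5 0.23 and Psmc5 0.39), against 14%, with 6 lower, against 15.5%. Among cells at 10% or more alone, 6 members were called higher in CD4 cells, against 9.68%, and 8 in CD8 cells, against 14.6%, with 0 lower in both, against 8.73% and 13.9%, and Psmc5 was at 0.93 and 0.55. In those CD8 cells Psmd7 (1.17) and Psmd3 (0.69) differed more than Psmc5, and 75.4% and 68.3% of them in SDHA-KO held a Trdc UMI, against 2.97% and 4.58% in WT. Psmc5 was called higher in both classes under each of these 5 choices of cells, counting all cells. The alternatives at 10% or more and with both restrictions were chosen after the data had been seen.

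**Figure D5:**
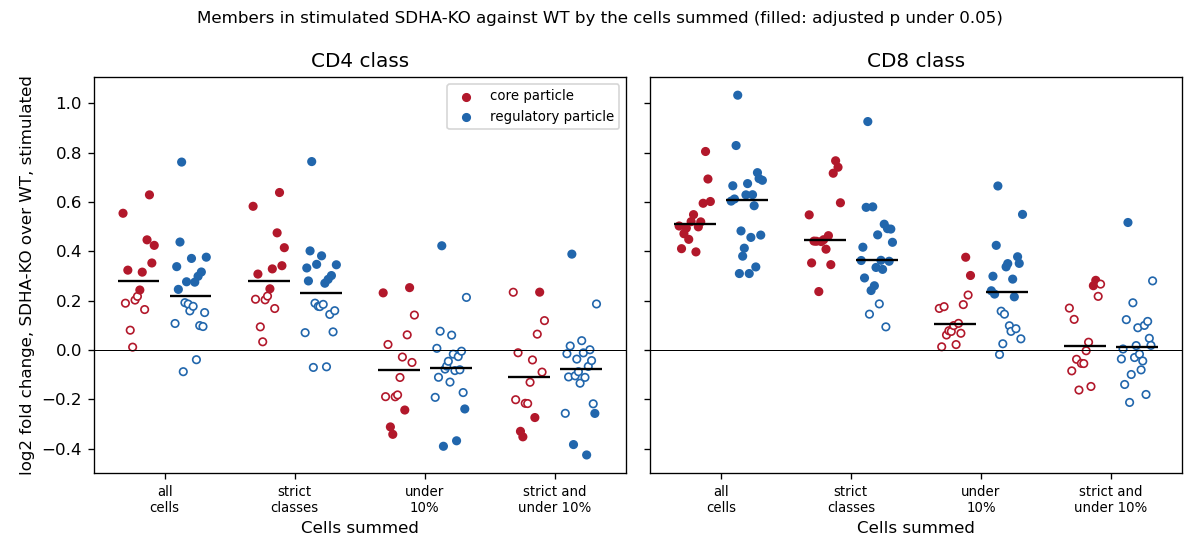
Log2 fold change of each tested member except Psmb11 between SDHA-KO and WT after stimulation, for 4 choices of the cells summed; each point is 1 gene, filled points have an adjusted p under 0.05, and lines are medians. With cells restricted to strict classes and under 10% mitochondrial UMIs the medians lie at -0.11 and -0.08 in CD4 and near 0 in CD8 cells, and Psmc5 stays the highest at 0.39 and 0.52.

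Marker sums of other cell types also moved with the genotype. The summed level of the 6 gamma-delta T cell markers of 9 listed that were in the matrix was 226 and 235 CPM in stimulated SDHA-KO CD8 cells against 15.4 and 18.3 in WT, with Cd163l1 at 0 to 5 UMIs in each of these libraries. The 5 myeloid markers summed to 138 and 150 against 79.4 and 76.0 in CD4 cells, with Lyz2 at 0 in all of these libraries, and to 128 and 126 against 75.8 and 77.1 in CD8 cells. The 4 natural killer cell markers summed to 37.0 and 46.2 in stimulated SDHA-KO CD8 cells against 15.96 and 19.7 in WT, and the class's own markers Cd8a and Cd8b1 to 187 and 247 against 393 and 433. In the CD4 class Cd4 was at 145 and 140 CPM in stimulated SDHA-KO against 90.7 and 95.5 in WT, and at 598 and 666 against 168 and 169 unstimulated. The strict CD4 class kept 916 of 1116 and 1042 of 1315 unstimulated SDHA-KO cells, and 521 of 933 and 540 of 951 in WT. The 6 B cell markers summed to 306 in 1 stimulated SDHA-KO CD8 library and to 43.4 to 57.8 in the other 3. A marker sum does not by itself show that such cells were present. Their part in the proteasome values was not tested beyond the restriction on Trdc given above.

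Whether the effect of SDHA-KO differed between states and between classes was tested directly. The effect after stimulation exceeded that without it for 10 members in CD4 cells, against 10.9% of all genes, and for 28 in CD8 cells, against 13.5%, with 0 in the other direction, against 10.5% and 10.2%. Psmc5 had the largest such difference, at 0.82 and 1.05. The effect in stimulated CD8 cells exceeded that in CD4 cells for 27 of 35 members (11 core and 16 regulatory), against 14.2%, and for 0 in reverse, against 11.1%, led by Psmd3 (0.68 ± 0.07) and Psmd7 (0.61 ± 0.06). This count, all of it higher in CD8 cells, was 24 among cells under 10% mitochondrial UMIs (against 12.8% of all genes higher), 7 in the strict classes (6.29%), 1 with libraries thinned to the smallest total (1.44%) and 14 without stimulated SDHA-KO replicate 1 (9.94%). The counts of the first comparison were 3 (1 higher, 2 lower) in CD4 and 2 (both higher) in CD8 cells among cells under 10%, against 6.21% of all genes higher and 8.02% lower in CD4 and 5.10% higher in CD8 cells. The CD4 count also moved with single libraries: it was 2 and 3 without either unstimulated WT replicate (against 5.85% and 5.69% of all genes higher), 3 and 5 without either stimulated WT replicate (8.10% and 9.08%), 3 without unstimulated SDHA-KO replicate 2 (6.54%) and 18 without stimulated SDHA-KO replicate 1 (13.8%), and the CD8 count was 18 without unstimulated WT replicate 1 (7.36%). Differences of at least 2-fold were called for Psmc4 and Psmc5 in the CD8 class, against 3.2% of all genes, and for 0 members in the CD4 class, against 2.99%, or between the classes, against 1.78%.

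Between the classes in WT, few members were called. In unstimulated cells Psma7 (0.35 ± 0.06) and Psmb1 (0.19 ± 0.05) were higher in CD8 than in CD4 cells, against 7.98% of all genes, and 0 were lower, against 7.19%. In stimulated cells 9 members were lower in CD8 cells, against 13.8%, 7 of them core genes led by Psma4 (-0.36 ± 0.04), with Psmd8 and Psmd10 (-0.48 ± 0.09) in the regulatory particle, and Psmc1 was higher (0.15 ± 0.05), against 12.2%. Of stimulated WT cells, 39.1% and 40.95% of the CD4 class and 24.3% and 29.3% of the CD8 class were under 10% mitochondrial UMIs. Among those cells 10 members were called higher in CD8 cells, against 9.60% of all genes, and 2 lower, against 10.6%. The stimulated count was 4 and 6 without either stimulated WT replicate (4 and 5 of them lower, against 7.14% and 7.60%), and the unstimulated count was 1 without either unstimulated WT replicate (against 3.91% and 3.05% higher). No member differed by 2-fold, against 2.28% and 2.4% of all genes higher in CD8 cells.

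The particle levels were also read in the subsets that the authors named. Over subsets with at least 20 cells in a library, the core particle made up 1414 to 1857 raw CPM in the unstimulated CD4 subsets Naive1 to Naive4. It made up 1600 to 1992 in Naive5, 1731 to 1909 in Treg and 2245 to 2530 in Tem1. In stimulated CD4 cells it made up 3918 to 6186 in Tem1 to Tem5, where 0.99% to 3.14% of UMIs were mitochondrial, and 1163 to 2487 in Tcm1 to Tcm5, where 8.84% to 25.6% were. Tem7 was at 2511 to 4256, with 3.15% to 6.99% of UMIs mitochondrial. Stimulated CD8 cells gave 3731 to 6019 in Tem1, Tem2, Tem3 and Tem6 and 1461 to 3070 in Tcm1 to Tcm5. The ranges pool WT and SDHA-KO libraries. With at least 20 cells, unstimulated CD4 Naive5 and stimulated CD8 Tem1 and Tem6 came from SDHA-KO libraries only. Stimulated CD4 Tcm1 and Tcm5 and CD8 Tcm5 came from WT libraries only, so subset and genotype are mixed. These subsets were clustered on the same cells, so the values are a description.

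Of 39 other genes of the ubiquitin and proteasome pathway, 21 rose and 9 fell with stimulation in WT CD4 cells, against 36.2% and 30.1% of all genes, and 16 rose and 11 fell in CD8 cells, against 35.5% and 30.3%. Among the assembly factors, Psmg3 (1.12 and 1.07), Psmg1 (1.08 and 1.12) and Pomp (1.03 and 0.56), which build the core particle, rose in both classes. The deubiquitinases bound to the proteasome, Usp14 (1.02 and 1.14) and Uchl5 (1.30 and 1.45), and the unfoldase Vcp (0.81 and 1.02) also rose. Other lists did not: of the 4 ubiquitin genes 0 rose, while 2 fell in CD4 and 3 in CD8 cells. Of the 4 degradation helpers (Zfand5, Zfand2a, Midn and Txnl1) 1 rose and 3 fell in CD4 cells, and 1 rose and 0 fell in CD8 cells. The activator genes Psme1 and Psme2 fell in CD8 cells (-0.52 and -0.56), while Psme3 rose in both classes (1.18 and 0.98). The falls of Psme1 and Psme2 were close in size to the same shift between scalings. In stimulated SDHA-KO against WT, 12 were called higher and 4 lower in CD4 cells, against 22.7% and 20.5% of all genes, and 20 and 4 in CD8 cells, against 26.8% and 23.5%, with Psmg3 (0.77 and 1.22), Psmb10 (0.95 and 1.15) and Pomp (0.57 and 0.76) higher and Psme4 (-0.31 and -0.48) lower. Nfe2l1, which encodes a transcription factor known to induce proteasome genes, was lower in SDHA-KO (-0.51 and -0.63), as was Nfe2l2 (-0.26 and -0.41). These lists were not fitted again on cells under 10% mitochondrial UMIs.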

How the data were processed

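Single-cell libraries (10x 3′ HT v3.1) of splenic T cells were demultiplexed by the authors with bcl2fastq, counted with Cell Ranger on mm10 (version not given in the sources used here) and merged in Seurat, and the deposited matrix holds raw UMI counts per gene and cell. Cells over a limit on detected genes and clusters without CD3 transcripts had been removed by the authors, and no further doublet caller was run here. The deposited cell table gives each cell's class, subset, percent of mitochondrial UMIs and a log10 ratio of Cd4 to Cd8a, which was not used. Whether counting used strand is not given, and exons of Psma4, Psma5, Psmb7, Psmc3, Psmd1, Psmd3, Psmd9 and Psmd13 overlap genes on the opposite strand, those of Psmd1 (Gm21972) and Psmb5 (Mir686) also genes on the same strand.

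Counts were summed per library and class (3640136 to 34087903 UMIs, so precision was lowest in unstimulated CD8 cells). Genes were filtered with filterByExpr (minimum count 10, minimum total 15), scaled by TMM and tested with the quasi-likelihood test of edgeR 4.0.16 (R 4.3.3) over the 4 groups of a class, or over both classes with the library as a block, with Benjamini-Hochberg adjustment over all genes tested and a threshold of 0.05. Alternatives used DESeq2 1.42.0, limma 3.58.1, other scalings and filters, thinned libraries, left-out libraries and restricted cells. On simulated counts all genes changed by 1 on the log2 scale were called (100%) in both classes, and 0.0818% (CD4) and 0.0979% (CD8) of unchanged genes. These counts had the same dispersion for every gene and library, and only genes of higher mean level were changed, so the shares need not hold for the real libraries. Named with values were the catalytic subunits, PSMD14 and the ubiquitin receptors, the assembly chaperones, tissue-restricted members, the extremes of each particle and members called against the rest; Psmb10, Psmc4 and the subsets were added to these. Members and lists were chosen with earlier results of these data known. Floors for a count of 0 cover counting error only.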

Additional observations from a re-analysis of the deposited data

Results flagged for a closer look

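The effect of SDHA-KO differed between stimulated and unstimulated cells, by the interaction term of edgeR, for 10 members in the CD4 class and 28 in the CD8 class. All of these effects were called higher after stimulation, against 10.9% of all genes in CD4 and 13.5% in CD8 cells. The log2 differences of the effects ranged among the called genes up to 0.63 (Psmb5) and 0.82 (Psmc5) in CD4 and to 0.75 (Psmb4) and 1.05 (Psmc5) in CD8 cells for the core and the regulatory particle. Both stimulated SDHA-KO libraries lay above both stimulated WT libraries for Psmb4, Psmb5 and Psmc5 in the class named. These genes were picked as the largest called in the same libraries, so this order adds no support. The effect after stimulation was also called higher in CD8 than in CD4 cells for 27 members, against 14.2% of all genes, up to 0.45 (Psma5) and 0.68 (Psmd3). The shares of cells under 10% mitochondrial UMIs and of cells with a Trdc UMI, the latter most in the CD8 class, moved with these differences. The values restricted on them stand in the report. There the counts of 10 and 28 became much lower among cells under 10% mitochondrial UMIs, near the share of all genes. Groups of 2 libraries are too small for a check of single libraries that stand apart.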

How the results depend on the processing

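Of the values that answer a comparison, 273 kept direction and call, 75 moved and 4 changed sign; of values for single genes, 6294 stayed, 139 passed the threshold newly, 476 no longer passed and 72 that were called in at least one of the fits changed sign. The deviations between replicates correlated between groups at -0.082 to 0.060. As each group gives a single difference between replicates, this cannot tell whether equal replicate numbers share a mouse or a day. With the replicate block the CD4 count of the SDHA-KO effect stimulated minus unstimulated went from 10 to 6. No other count of calls fitted with that block moved by over 1.5 times. Depth limits the unstimulated CD8 class most: with libraries thinned to the smallest total the counts were 3 and 14 for that effect (CD4 and CD8), 8 for stimulated SDHA-KO against WT in CD4 cells, 0 and 1 for CD8 against CD4 in stimulated and unstimulated WT, and 1 for the SDHA-KO effect CD8 minus CD4, and the regulatory sum rose with stimulation by 0.66 and 0.62. Where a cause is not part of the setting itself, the cause was not tested. Counts in this section without the share of all genes beside them cannot tell a change of the members from a change of all genes.

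With limma on mean log values the CD4 counts were 33 for stimulated SDHA-KO against WT and 28 for its difference from unstimulated. DESeq2 called 5 members for CD8 against CD4 in stimulated WT. With library totals the counts were 6 (1 higher, 5 lower) for CD8 against CD4 in unstimulated WT and 18 for the SDHA-KO effect stimulated minus unstimulated in CD8 cells, the core sums differed by 1.09 (CD4) and 1.06 (CD8) with stimulation and by 0.47 for SDHA-KO in CD8 cells, and the regulatory sums by 0.94, 1.16 and 0.53. In strict classes the counts were 6 and 4 for CD8 against CD4 in stimulated and unstimulated WT, 7 for the SDHA-KO effect CD8 minus CD4, and 6 and 16 for the effect stimulated minus unstimulated, and the regulatory sum for SDHA-KO in CD8 cells was 0.40. Among cells under 10% mitochondrial UMIs the counts were 9 and 14 for stimulated SDHA-KO against WT and 3 and 2 for the effect stimulated minus unstimulated; the core sums were -0.084 and 0.13 for SDHA-KO and 1.29 and 1.14 for stimulation, and the regulatory sums -0.077, 0.25, 1.06 and 1.12. With strict classes as well, the counts were 8 and 3, the core sums -0.10, 0.048, 1.28 and 1.14, and the regulatory sums -0.10, 0.033, 1.06 and 1.11. Among cells at 10% or more the counts were 6 and 8. Requiring a 2-fold change left 10 and 5 for stimulation, 0 and 1 for stimulated SDHA-KO against WT, 0 and 2 for its difference from unstimulated, and 0 for each comparison of the classes. Without the assembly chaperones the regulatory sum rose by 0.71 with stimulation in CD8 cells.

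Leaving out 1 library at a time, counts ranged from 29 to 32 and 30 to 32 for stimulation (CD4 and CD8), 13 to 28 and 32 to 34 for stimulated SDHA-KO against WT, 2 to 18 and 18 to 26 for its difference from unstimulated, 4 to 13 and 1 to 3 for CD8 against CD4 in stimulated and unstimulated WT, and 14 to 27 for the SDHA-KO effect CD8 minus CD4. The core sums ranged from 0.83 to 0.90 and 0.57 to 0.61 with stimulation and 0.20 to 0.39 and 0.47 to 0.56 for SDHA-KO, and the regulatory sums from 0.68 to 0.76, 0.67 to 0.70, 0.16 to 0.32 and 0.55 to 0.60.

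The sign changes below are those of values called in the test over all cells or under the setting; changes of sign in values called in neither are left out. With limma on mean log values per cell, log2 values changed sign for stimulation of WT CD4 cells Psmd5 0.012, and for stimulated SDHA-KO against WT in CD4 cells Psmd3 0.070, Psmc6 0.087, and for stimulation of WT CD8 cells Psmd5 0.047. With cells under 10% mitochondrial UMIs, log2 values changed sign for stimulation of WT CD4 cells Psmb1 0.36, and for stimulated SDHA-KO against WT in CD4 cells Psmc3 -0.11, Psmd4 -0.026, Psma5 -0.34, Psmb2 -0.028, Psmd8 -0.24, Psma4 -0.31, Psmb6 -0.050, Psmb3 -0.24, Psmd6 -0.0047, Psmd2 -0.083, Psmb1 -0.11, Psmd10 -0.065, and for stimulation of WT CD8 cells Psmb1 0.048, Psmd10 0.039, and for stimulated SDHA-KO against WT in CD8 cells Psmc6 -0.018, and for the SDHA-KO effect stimulated minus unstimulated in CD8 cells Psmb2 -0.023, Psma4 -0.014, and for CD8 against CD4 in stimulated WT Psma7 0.042, Psmb2 0.026, Psmb6 0.062, Psmb5 0.15. With library totals only, log2 values changed sign for stimulation of WT CD8 cells Psmd5 0.41, Psmb1 0.012, Psmd10 0.033. With libraries thinned to the smallest total, log2 values changed sign for the SDHA-KO effect CD8 minus CD4 Psmd9 -0.33, Psma6 -0.0060. With strict classes, log2 values changed sign for the SDHA-KO effect CD8 minus CD4 Psmc3 -0.0058. With cells at or above 10% mitochondrial UMIs, 4 stimulated libraries, log2 values changed sign for stimulated SDHA-KO against WT in CD4 cells Psmb2 -0.078, Psmb1 -0.10, Psmd10 -0.058, and for stimulated SDHA-KO against WT in CD8 cells Psma7 -0.0067, Psmb4 -0.19, Psmd8 -0.10, Psma1 -0.17, Psmd13 -0.061, Psma6 -0.073, Psma2 -0.13. With strict classes and cells under 10% mitochondrial UMIs, log2 values changed sign for stimulated SDHA-KO against WT in CD4 cells Psmc3 -0.11, Psmd4 -0.066, Psma5 -0.35, Psmb2 -0.040, Psmc2 -0.015, Psmd8 -0.26, Psma4 -0.33, Psmb6 -0.089, Psmb3 -0.27, Psma3 -0.011, Psmd6 -0.043, Psmd2 -0.11, Psmb1 -0.13, Psmd10 -0.037, and for stimulated SDHA-KO against WT in CD8 cells Psmd1 -0.10, Psmd5 -0.18, Psmd14 -0.017, Psmc3 -0.14, Psma7 -0.055, Psma5 -0.16, Psma4 -0.038, Psmd11 -0.030, Psmb3 -0.15, Psmd3 -0.044, Psma6 -0.054, Psmc1 -0.036, Psma2 -0.084, Psmc6 -0.21, Psmd2 -0.080, Psmb1 -0.0028.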
